A study of Monodelphis domestica with 8 samples.

Results

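H3K9me3 peaks that met no other mark were described here in fetal brain of the gray short-tailed opossum (Monodelphis domestica), a laboratory marsupial, from females at embryonic day 13. They are the peaks of the deposited H3K9me3 list on chromosomes 1 to 8 that share not a single base (minimum overlap 1 bp) with a peak of the H3K4me3, H3K9Ac or H3K27me3 lists, leaving out chromosome 3 from 500 Mb on. The members were thus chosen by the positions of peaks in all 4 lists, so that their lack of overlap is no finding. There were 449 of them, called mark-free below, of 612 H3K9me3 peaks in the same sequence, 979 in the whole list and 54517 peaks of all marks in the series. The 8 libraries comprised 2 for each of the 4 antibodies. Each library came from chromatin of 2 pooled sister fetuses, one pool from an LL2 mother and LL2 father and the other from an LL1 mother and LL2 father. No group was treated or mutant, and fetal brain is a mixture of cell types, so a mark's peaks need not lie in the same cells. Both libraries of a mark share 1 list, so no value has a replicate error and no test was made. Intervals are exact 95% intervals that cover the counting of peaks only, and the sequencing depth behind the lists is unknown.

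H3K9me3, trimethylation of lysine 9 of histone H3, is the mark of constitutive heterochromatin, bound by HP1 proteins and known for its presence over satellite repeats, transposable elements and clusters of zinc-finger genes. H3K4me3 and H3K9Ac mark active promoters, and acetylation and trimethylation of lysine 9 cannot occupy the same residue. H3K27me3 is laid down by Polycomb repressive complex 2 and is the mark of facultative heterochromatin. Regions are given in the coordinates of the deposited lists, counted from 1. No source used here states the genome build, so genes and bases under the peaks were not used.

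The mark-free peaks made up 73.4% of the autosomal H3K9me3 peaks (69.7% to 76.8%). They covered 438 kb, or 0.0129% of the 3390 Mb between the outermost peaks of each autosome. Of the other 163 peaks, 122 overlapped H3K27me3, 97 overlapped H3K4me3 and 32 overlapped H3K9Ac. The commonest combinations were H3K27me3 alone with 62 peaks, and H3K4me3 and H3K27me3 together with 50 peaks. A further 20 carried H3K4me3 and H3K9Ac, 19 carried H3K4me3 alone and 8 carried all 3 marks. Of the 163 overlapping peaks, 42 (25.8%) lay on chromosome 1 in the bins starting at 332 and 333 Mb, where there was 1 mark-free peak. All 42 met H3K27me3. Without these 2 bins the mark-free share was 78.7%.

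Few peaks lay near the border of the rule. The mark-free peak nearest to another mark, chr2:453216812-453217843, had a score of 77.88 and ended 41 bp from an H3K4me3 peak. The next was chr4:405892939-405894755, with a score of 106.3 and an H3K4me3 peak 124 bp away. Only the first 4 members lay within 500 bp of another mark, at 41, 124, 271 and 467 bp, each time H3K4me3, and the fifth lay 562 bp from H3K27me3. Just outside the rule, the shortest overlap was 227 bp, between chr1:668944531-668946166 (score 163.96) and an H3K27me3 peak with the low score of 57.85. The next 3 shared 301, 321 and 321 bp. These distances are a description of the rule and carry no test.

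Most mark-free peaks were weak. The score is the authors' own value per peak, with no statement of how it was computed, and the lowest in the H3K9me3 list is 50.03. The mark-free peaks had scores between 50.06 and 192.77 with a median of 56.08 (55.25 to 57.18). The overlapping peaks ran between 50.12 and 665.83 with a median of 68.53 (61.49 to 75.71), or 62.47 without the chromosome 1 bins at 332 and 333 Mb. Scores below 60 belonged to 299 mark-free peaks (66.6%), against 63 overlapping peaks (38.7%). A score above 100 was held by 23 mark-free peaks (5.12%) and by 40 overlapping peaks (24.5%), and one above 200 by 0 and 13. These counts include the same chromosome 1 bins, where overlapping peaks reached a score of 322.72. The strongest mark-free peak ranked 15th among the 612, so that the 14 strongest autosomal H3K9me3 peaks all overlapped another mark. This rank also includes those bins and was not computed without them.

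Mark-free peaks were also narrow. Their median width was 815 bp (797 to 838 bp), against 1001 bp (935 to 1096 bp) for overlapping peaks. Part of this difference rested on chromosome 1 from 332 to 334 Mb. Without it the medians were 815.5 bp (797 to 838 bp) for mark-free and 913 bp (875 to 998 bp) for overlapping peaks. The range was 467 to 10342 bp in the mark-free group and 488 to 4220 bp in the overlapping group. Widths under 1 kb were found in 332 mark-free peaks (73.9%) and 81 overlapping peaks (49.7%). Overlapping peaks with H3K27me3 alone had medians of 1086.5 bp and a score of 74.68, and those with H3K4me3 alone had 986 bp and 61.72. The share of overlapping peaks under 1 kb and the medians for H3K27me3 alone include that part of chromosome 1. Neither was computed without it. A wider peak has more sequence in which to meet another mark, and how far this bears on the difference in width was not tested. Wider mark-free peaks tended to have higher scores, with a Spearman rho of 0.41 over 449 peaks of 1 list.

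**Figure D1:**
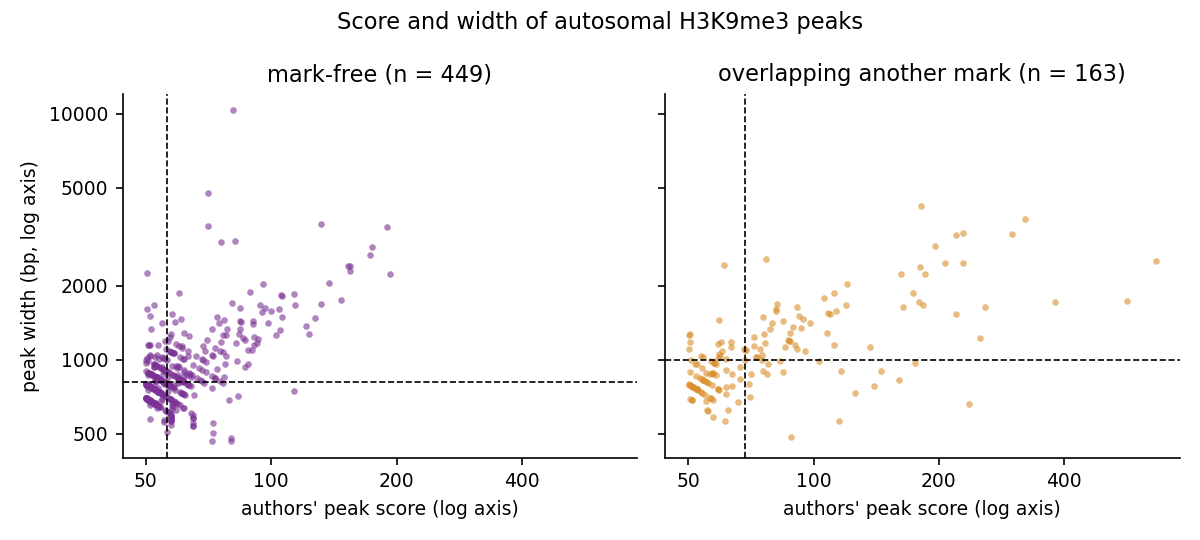
Authors' score (x axis, log scale) and width in bp (y axis, log scale) of each autosomal H3K9me3 peak, mark-free on the left and overlapping on the right, with dashed lines at the medians. Mark-free peaks crowd near the lowest score with a median of 56.08 and 815 bp, and none exceeds a score of 200.

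The mark-free share was lower among stronger and wider peaks. With the 612 peaks divided by score into 4 classes of 153, 85.0% of the lowest class were mark-free (78.3% to 90.2%), then 81.7% and 75.8%. In the highest class, with scores from 72.4, the share was 51.0% (42.8% to 59.1%). Classes by width gave 85.6%, 81.0%, 71.2% and, for peaks of 1103 bp and more, 55.6% (47.3% to 63.6%). Within each class of width the median scores differed less than over all peaks, but only little less in the widest class. In the narrowest class the median score was 54.74 for mark-free and 57.17 for overlapping peaks. It was 53.145 and 54.23 in the second and 56.48 and 60.88 in the third. In the widest, which ran up to 10342 bp, it was 82.46 and 92.70. Of the 100 strongest peaks 43 were mark-free, of the 50 strongest 17, and of the 20 strongest 2. These classes and counts include the 42 overlapping peaks of the chromosome 1 bins at 332 and 333 Mb, whose median score was 87.52. No class or count was computed without those bins.

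**Figure D2:**
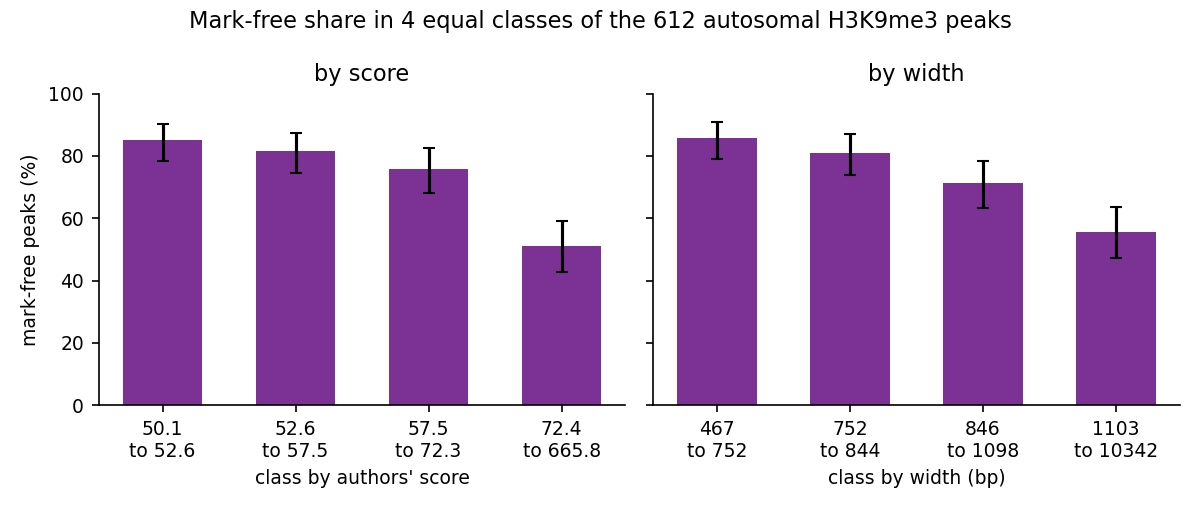
Share of mark-free peaks in percent (bars from 0, with exact 95% intervals) in 4 equal classes of the 612 autosomal H3K9me3 peaks by score (left) and by width (right). The share is 85.0% in the class with the lowest scores and 51.0% in that with the highest.

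The strongest member was chr4:412379918-412382141, 2224 bp wide with a score of 192.77, and its closest H3K9me3 neighbour lay 353 bp away. Next came chr3:409474810-409478259, 3450 bp wide with a score of 190.12, which had a second mark-free peak of 3508 bp (score 70.37) 3.15 kb before it. The third, chr2:538746281-538749152, was 2872 bp wide with a score of 174.20. The fourth, chr1:624048664-624051331, had a score of 173.16 and was the most isolated of the 10 strongest. Its nearest H3K9me3 peak lay 2491 kb away and its nearest peak of another mark 218 kb away. The fifth, chr8:35723185-35725587, had a score of 154.55, and its nearest other mark was a weak H3K27me3 peak (score 50.03) at 33.3 kb.

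All of the 10 strongest were wider than the mark-free median, at 1684 to 3450 bp. They lay 6.23 to 218 kb from the nearest other mark, which was H3K4me3 for 9 of the 10, as it was for 78.0% of all members. Of these 10, 4 were on chromosome 4, between 401 and 413 Mb. The weakest of the 10, chr2:522020088-522021771, had a score of 131.81.

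Width did not always come with score. The widest member, chr3:458630762-458641103, spanned 10342 bp with a score of only 80.89, and its nearest H3K9me3 peak was 3559 kb away. The next, chr3:481702205-481706969, spanned 4765 bp with a score of 70.52. The third, chr3:380611430-380614989, spanned 3560 bp with a score of 131.74. All 5 widest members were on chromosome 3, the other two being the pair near 409 Mb. Of the 16 members wider than 2 kb, 6 were on chromosome 3, 4 on chromosome 4, 2 each on chromosomes 1, 2 and 8, and 0 on chromosomes 5, 6 and 7.

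Mark-free peaks were thinly spread, at 0.132 per Mb (0.120 to 0.145), or 1 per 7.55 Mb. Chromosome 4 was densest with 91 peaks, 0.209 per Mb (0.168 to 0.257). Chromosome 1 had 107 peaks (0.143 per Mb), chromosome 3 had 68 (0.136), chromosome 8 had 41 (0.133) and chromosome 2 had 65 (0.120). The sparsest were chromosomes 7, 6 and 5, with 24, 26 and 27 peaks and densities of 0.0920, 0.0892 and 0.0887 per Mb. The interval of chromosome 4 lay above those of chromosomes 2, 5, 6 and 7 and overlapped those of 1, 3 and 8. The mark-free share of H3K9me3 peaks ran from 61.5% on chromosome 1, which holds the overlapping group at 332 and 333 Mb, to 84.3% on chromosome 4. Median scores differed little, from 53.2 on chromosome 7 to 57.3 on chromosome 8, and no member on chromosomes 5, 6 or 7 exceeded a score of 93.03.

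**Figure D3:**
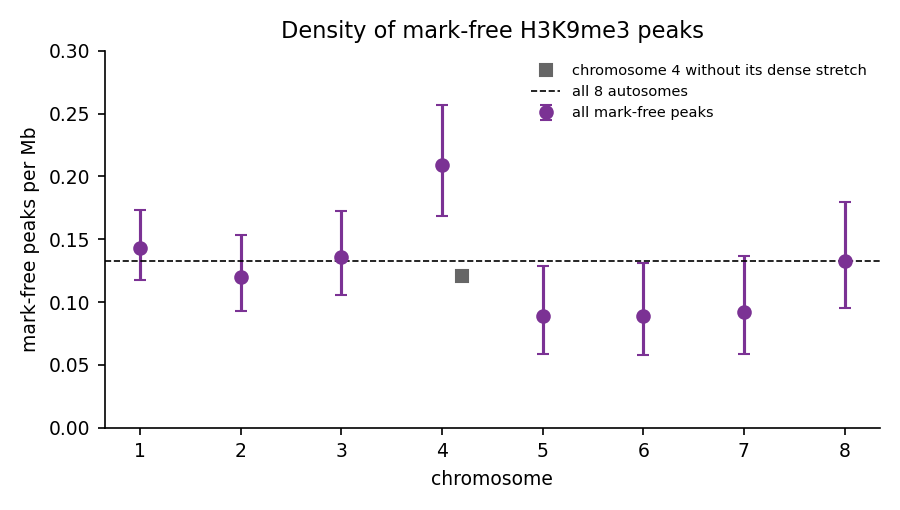
Mark-free H3K9me3 peaks per Mb on each autosome (circles, with exact Poisson 95% intervals), the value over all 8 autosomes (dashed line, 0.132) and chromosome 4 without its stretch of 12 Mb (square, 0.121). Chromosome 4 lies above the line with the stretch and below it without.

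The excess on chromosome 4 came from a single stretch. Between 401 and 413 Mb, 12 Mb or 0.354% of the sequence, there were 40 mark-free peaks, 8.91% of all and 44.0% of those on the chromosome. Outside it chromosome 4 had 51 peaks, 0.121 per Mb, the same as the 0.121 per Mb of all autosomes outside the stretch. The peaks formed a group in the bins starting at 401 to 405 Mb, with 6, 5, 7, 11 and 4 members, and a second in those at 411 and 412 Mb, with 4 and 3. The 5 bins between held none. This stretch was chosen after its values were seen.

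Members in the stretch, like some in other crowded bins given below, were strong for this class. Their median score was 66.12 and their median width 1166 bp, against 55.74 and 805 bp for the 409 members elsewhere. It held 11 of the 23 members with a score above 100, which is 27.5% of the members in the stretch, against 2.93% of those elsewhere. Scores below 60 were found in 40% of them and in 69.2% of the others. Only 1 H3K9me3 peak of the stretch overlapped another mark, but the stretch was picked for its mark-free peaks, so this count carries no test. H3K4me3 was dense there. The stretch held 188 H3K4me3 peaks (15.7 per Mb, against 6.39 per Mb over the autosomes) and 48 H3K9Ac peaks (4 per Mb, against 3.46). H3K27me3, with 19 peaks, was at 1.58 per Mb, against 2.17. H3K4me3 was the nearest other mark for all 40 members, at a median of 14.0 kb to it, against 74.4 kb to the nearest mark for the members elsewhere.

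The 1 Mb bin with most mark-free peaks of all autosomes started at 404 Mb of chromosome 4, inside the stretch. Its 11 mark-free peaks had scores between 50.06 and 113.62 with a median of 61.80, and widths between 673 and 1851 bp. Each lay between 5.55 and 30.9 kb from the nearest of the 24 H3K4me3, 6 H3K9Ac and 1 H3K27me3 peaks of the region, and the bin had 0 overlapping H3K9me3 peaks. Of the 11, 7 had another H3K9me3 peak within 50 kb.

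**Figure D4:**
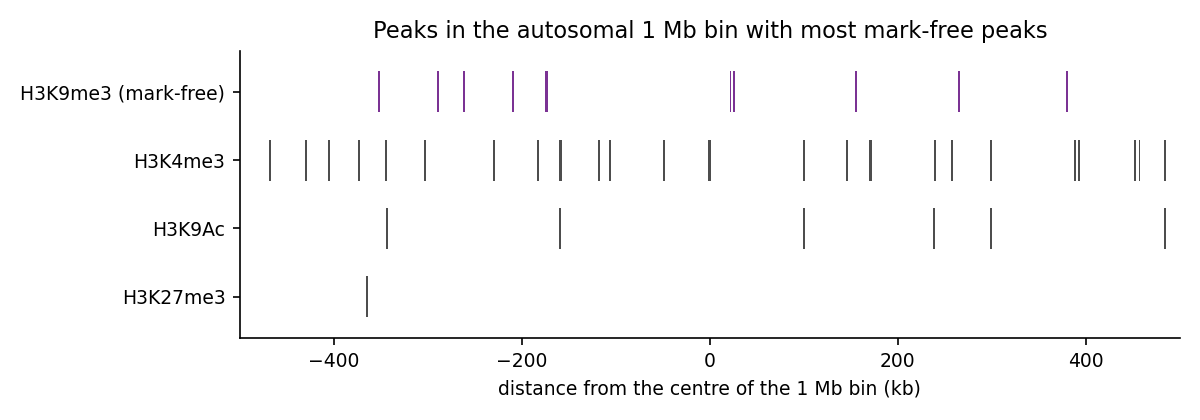
Peaks of the 4 marks in the bin of chromosome 4 starting at 404 Mb, by distance from the bin's centre in kb (x axis), with 1 row per mark and peaks drawn at least 2 kb wide. The 11 mark-free H3K9me3 peaks lie outside the 24 H3K4me3 peaks, which the rule requires of them.

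Other crowded bins were smaller and differed in the marks around them. Chromosome 1 held 7 members in the bin starting at 745 Mb, beside 14 H3K4me3 and 4 H3K27me3 peaks and 2 overlapping H3K9me3 peaks. Chromosome 8 had 5 in the bin at 35 Mb, beside 9 H3K4me3 and 0 H3K9Ac peaks. Chromosome 3 had 5 in the bin at 499 Mb, the last before the sequence left out. Chromosome 1 also had 5 in the bin at 225 Mb, where only 2 H3K4me3 peaks and 1 H3K27me3 peak were called. Member scores ran from 50.69 to 87.87 in the bin at 745 Mb and from 61.45 to 154.55 in that at 35 Mb. They ran from 51.73 to 105.52 in the bin at 499 Mb and from 52.83 to 59.1 in that at 225 Mb. High scores were thus not particular to the chromosome 4 stretch. Of 3394 bins of 1 Mb, 346 (10.2%) held any member, and the 46 bins with 2 or more (1.36% of bins) held 149 members (33.2%).

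Most members had no other H3K9me3 peak within 50 kb. How their spacing compares with an even spread of peaks was not tested. The nearest H3K9me3 peak of any kind was a median of 1107 kb away from a mark-free peak and 936 kb from an overlapping peak. Another H3K9me3 peak lay within 50 kb of 75 mark-free peaks (16.7%, 13.4% to 20.5%) and of 59 overlapping peaks (36.2%, 28.8% to 44.1%). This difference rested on the chromosome 1 bins at 332 and 333 Mb. Without them the shares were 16.5% for mark-free and 14.9% for overlapping peaks. The neighbour was itself mark-free for 67 of the 75 (89.3%), and the nearest H3K9me3 peak was mark-free for 83.3% of all members. Of all autosomal H3K9me3 peaks 73.4% were mark-free, or 78.7% without the chromosome 1 bins, and the chromosome 4 stretch is included in these shares. Members with such a neighbour had a median score of 60.95 and width of 895 bp, against 55.62 and 796 bp for the 374 without.

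Joined at gaps below 50 kb, the members formed 382 singles, 20 pairs and 9 groups of 3, and no larger group. Among the groups of 3, the one with most sequence under peaks was chr3:380597006-380614989, 18.0 kb long, with scores of 58.81, 75.09 and 131.74 along it. The second, chr4:411740405-411749410, was 9.01 kb long, with scores of 137.88, 104.75 and 50.99. The third and the fourth, chr1:746099782-746136222 and chr4:404290134-404326962, spanned 36.4 and 36.8 kb and reached scores of 90.64 and 90.92. In each of these 4 groups, a member lay within 72.1 kb of an H3K4me3 peak. The fifth, chr1:480973840-481031853, spanned 58.0 kb and was far from any mark, the nearest H3K4me3 peak being 1313 kb away. Joining at 5 kb left 427 of the 449 peaks separate and put the other 22 in 10 domains.

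In the median, mark-free peaks lay somewhat nearer to the closest other mark than autosomal positions did, and the chromosome 4 stretch carried part of this. Taken by mark, only the median distance to H3K4me3 was shorter, and its interval included the value of the positions. The median from a mark-free peak to the nearest peak of any other mark was 62.2 kb (51.8 to 78.0 kb), against 81.2 kb for positions taken every 10 kb outside the peaks of these marks. Without the stretch it was 74.4 kb (61.2 to 105 kb), an interval that includes the value of the positions. By mark, the median was 74.6 kb to H3K4me3 (61.1 to 92.4 kb), 194 kb to H3K9Ac (173 to 219 kb) and 453 kb to H3K27me3 (348 to 535 kb). The positions gave 90.5, 182 and 439 kb, each inside the interval of its mark. No median by mark was computed without the stretch. H3K4me3 was the nearest mark for 350 members (78.0%), against 79.3% of positions. It was H3K27me3 for 65 members (14.5%), against 14.2% of positions, and H3K9Ac for 34 members (7.57%), against 6.55% of positions.

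Small departures appeared at both ends of the scale. Within 20 kb of another mark lay 121 members (26.9%, 22.9% to 31.3%), against 20.3% of the sequence outside those marks. Without the chromosome 4 stretch the share was 24.0% (19.9% to 28.4%), an interval that includes the value of the sequence. Within 5 kb the shares were 6.24% of members and 6.12% of sequence. For H3K9Ac taken alone the share within 20 kb was 7.13% of members (4.93% to 9.91%) and 10.6% of the sequence outside H3K9Ac peaks. That sequence includes H3K4me3 and H3K27me3 peaks, where by the rule no member can lie, so part of this gap may be built in. Beyond 1 Mb from any other mark lay 35 members (7.80%), against 4.98% of the sequence. The sequence shares include gaps of the assembly.

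**Figure D5:**
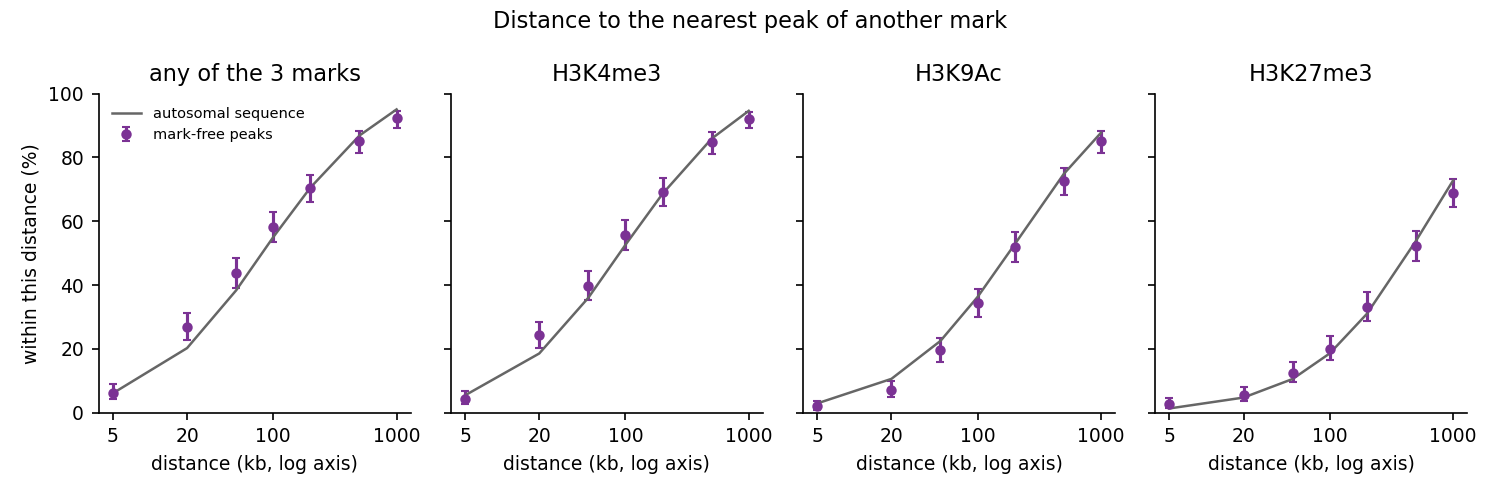
Percentage of the 449 mark-free peaks (points, with exact 95% intervals) and of autosomal sequence outside the marks (line) that lie within a distance (x axis, kb, log scale) of the nearest peak of any of the 3 other marks or of each mark. For any mark the points lie above the line at 20 kb (26.9% and 20.3%) and 50 kb (43.7% and 38.4%), while 7.80% of peaks and 4.98% of sequence lie beyond 1000 kb. For H3K9Ac the point at 20 kb lies below the line (7.13% and 10.6%). In the panels of single marks the line leaves out only that mark's peaks, so it includes sequence where no member can lie.

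Some members lay deep in sequence without any other mark. Of the 67 members more than 500 kb from another mark, scores ran from 50.1 to 99.97 with a median of 56.97, and none exceeded 100. A score above 100 was held by 8 of the 121 members within 20 kb, 12 of the 140 between 20 and 100 kb and 3 of the 121 between 100 and 500 kb. Of the first 2 classes, 5 and 6 of these strong members lay in the chromosome 4 stretch. Without it, 3 of 98 within 20 kb (3.06%) and 6 of 123 between 20 and 100 kb (4.88%) exceeded 100. Between 100 and 500 kb it was 3 of 121 (2.48%) with or without the stretch. The distant members were found on every autosome, from 12.1% of the members on chromosome 4 to 22.2% on chromosome 5. Without the stretch, which held none of them, the share on chromosome 4 was 21.6% (11 of 51). The farthest pair, chr3:133099047-133100306 (score 76.77) and chr3:133409496-133410325 (score 54.23), lay 4242 and 3932 kb from any other mark, inside an interval of 10.7 Mb without one. A second pair on chromosome 5, chr5:191726968-191727792 and chr5:192366792-192367562, scored 59.75 and 71.99 in an interval of 6.79 Mb. The fifth, chr1:551978935-551979726, with a score of 56.76, was alone in one of 5.10 Mb. Of 154 intervals longer than 2 Mb without any other mark, 50 held mark-free peaks, 77 in all over 474 Mb, or 0.163 per Mb. By the rule every H3K9me3 peak in such an interval is mark-free. The 0.132 per Mb over the autosomes leaves out overlapping peaks and is thus no like measure. With them, the autosomes held 612 H3K9me3 peaks in 3390 Mb.

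Members were present both where H3K4me3 was absent and where it was dense. Bins of 1 Mb without any H3K4me3 peak, 13.9% of bins, held 68 members (15.1%, 12.0% to 18.8%) and 2 overlapping peaks (1.23%). The density was 0.144 members per bin there, 0.107 in bins with 1 to 5 H3K4me3 peaks, 0.119 with 6 to 15, and 0.281 (0.225 to 0.348) with over 15. Without the chromosome 4 stretch the last value was 0.189 and the others 0.145, 0.107 and 0.111. Bins without H3K27me3, 46.1% of bins, held 45.2% of the members and 7.36% of the overlapping peaks. Of the 163 overlapping peaks, 97 overlapped H3K4me3 and 122 overlapped H3K27me3. Their low shares in bins without these marks thus follow in part from the rule and are no finding. Counted within 500 kb on either side, mark-free peaks had a median of 5 H3K4me3 peaks around them, and overlapping peaks 17, against 5 per bin of 1 Mb. The surroundings of overlapping peaks contain by definition the peaks that they overlap. Within 10 Mb of a chromosome end lay 46 mark-free peaks (10.2%) and 17 overlapping peaks (10.4%), and these 15 ends make up 4.42% of the sequence. The peaks were not spread evenly over the ends. The chromosome 1 bin at 745 Mb alone held 7 of these mark-free and 2 of these overlapping peaks.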

How the data were processed

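Chromatin of fetal brain was digested with micrococcal nuclease and immunoprecipitated with 4 antibodies, per the labels' protocols. The submitters' processing notes list CASAVA 1.7, Bowtie 1.1.2 and MACS 1.0.1. No source used here states the genome build, the control library, the threshold, how reads matching several places were treated, or how both libraries of a mark became 1 list. The deposited lists give a position and a score per peak, and the score is the authors' value, used only within a list. The lists carry no reads, which leaves the depth unknown.

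The rule, overlaps, distances between peak edges and bins by peak midpoint were computed with Python 3.11.15, numpy 2.4.6, scipy 1.17.1 and pandas 2.3.3, and tested on simulated data. Shares have Clopper-Pearson intervals, densities Poisson intervals and medians order-statistic intervals, all at 95%. With 1 list per mark no test was run. The sequence of an autosome is the span between its outermost peaks, whatever the mark. Regions named are the 10 strongest, the 5 widest, the 5 farthest from and the 5 nearest to another mark, the 5 shortest overlaps, the 5 largest groups and the 5 fullest bins with ties. The dense stretch on chromosome 4 is the run of bins with at least 3 members, joined over at most 5 other bins, that holds most members; the run of overlapping peaks on chromosome 1 is that of neighbouring bins with at least 10. Of the regions named by rule, those that add a value are printed. The members and these choices were made with earlier results of these data known. A gene table of another assembly was not used.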

Additional observations from a re-analysis of the deposited data

Results flagged for a closer look

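Mark-free H3K9me3 peaks also occurred in sequence that the comparisons above left out. Distal chromosome 3, from 500 Mb on, held 75 mark-free peaks among its 87 H3K9me3 peaks (86.2%, 77.1% to 92.7%), with a median score of 64.0. Unplaced sequence held 90 of 213 (42.3%, 35.5% to 49.2%), with a median score of 58.99 and a maximum of 233.36, above every mark-free peak of the autosomes. It took 21.8% of the H3K9me3 list, against 5.84% of H3K4me3, 1.57% of H3K9Ac and 9.86% of H3K27me3 peaks. The X chromosome held 15 of 67 (22.4%, 13.1% to 34.2%), with a median score of 57.52. These counts stand out because the data lie outside the sequence compared, and no test was made.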

How the results depend on the processing

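No paired analysis was possible because each mark has 1 list for both libraries. Of 182 values under 20 alternatives, 155 stayed within the interval of the reported value (for the number of members, within 1.5 times). Where a value moved, it was as follows, and the cause was not tested unless the alternative itself shows it. With the top-scoring 50% of H3K9me3 peaks there were 165 members (61.1%, 0.0487 per Mb), with medians of 71.89 (score), 1004 bp and 51.7 kb to another mark, and overlapping medians of 87.4 and 1178 bp. With the top-scoring 50% of the other lists, 78.3% were mark-free, 137.5 kb away in the median, and 25.1% in bins without H3K4me3. A 5 kb flank left 68.8% mark-free. Joining H3K9me3 peaks below 5 kb gave 11.6% of mark-free and 16.7% of overlapping peaks a neighbour within 50 kb. With distal chromosome 3 kept, 24.0% of mark-free peaks had one, the median distance to another mark was 45.0 kb and the density 0.153 per Mb. Without chromosome 1, 78.1% were mark-free and 14.6% of overlapping peaks had a neighbour within 50 kb. Without its 332 to 334 Mb, chosen after seeing the data, the values were 78.7% and 14.9%, and overlapping peaks were 913 bp wide in the median. Bins of 500 kb and 2 Mb put 27.2% and 8.91% of members in bins without H3K4me3. Within 10 kb of another H3K9me3 peak lay 8.46% of mark-free and 27.6% of overlapping peaks, and within 250 kb 31.0% of mark-free peaks. Leaving out 401 to 413 Mb of chromosome 4, also chosen after seeing the data, moved none of the 11 values. The scores crowd near the lowest one, which limits any ranking of members.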
